A study of Homo sapiens with 14 samples.

Results

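The MAPK feedback genes are 10 genes chosen by symbol, DUSP4, DUSP5, DUSP6, SPRY1, SPRY2, SPRY4, SPRED1, SPRED2, ETV4 and ETV5, among 60683 gene identifiers in each RNA-seq count table. All 10 were found by symbol in GENCODE release 44, and all 10 passed the filter on low counts in every model. RNA was sequenced from A549, a lung cancer line, and SUM159, a triple negative breast cancer line, both of which carry mutant RAS. A549 cells were either untreated or received 2 μM palbociclib (a CDK4/6 inhibitor) for 10 days, 0.5 μM indisulam (which directs the splicing factor RBM39 to degradation) for 10 days, both drugs together for 10 days, or 0.5 μM PF-06873600 (described as a CDK2/4/6 inhibitor) for 7 days. SUM159 cells were either untreated or received 0.5 μM PF-06873600 for 7 days. Each of the 7 groups had 2 libraries, 14 in all, which the submitters describe as technical duplicates, so p-values measure the spread between such libraries and not between separate experiments. Counts on genes ran from 13060374 to 21149256 per library. Levels are given as CPM, a gene's count scaled to the library's total on genes. A count of 3, taken as the smallest level a library can show, lay between 0.142 and 0.230 CPM, and this covers counting error only.

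ERK, the last kinase of the RAS-RAF-MEK-ERK (MAPK) cascade, switches on genes whose products restrain the same cascade, and their RNA is widely read as a measure of ERK output. DUSP4, DUSP5 and DUSP6 are phosphatases that remove the activating phosphates from MAP kinases, with DUSP6 acting on ERK in the cytoplasm and DUSP5 on ERK in the nucleus. Sprouty proteins (SPRY1, SPRY2, SPRY4) restrain signalling between growth factor receptors and RAF, and SPRED1 and SPRED2 bring the RAS inactivator neurofibromin to the membrane. ETV4 and ETV5 are ETS transcription factors of the PEA3 family, whose genes are repressed by CIC until ERK relieves that repression.

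Sequences before the start of transcription are shown for 3 of the 4 members with such a window that rose in SUM159 and fell with the combination in A549 (below), because ETS factors, 2 of which are members themselves, bind DNA with a GGAA core. The RefSeq (GRCh38.p14) windows at hand, of 250 bases before a start, covered 6 members with 10 windows, and 7 of these lay outside the exons of their gene. No window was at hand for DUSP4, DUSP5, ETV4 and ETV5. Of these DUSP4 and ETV5 also rose in SUM159 and fell with the combination. Letters of 4 motifs were searched on both strands: CCGGAA and the shorter CGGAA it contains (ETS), TGANTCA (AP-1) and TGACGTCA (CRE). CGGAA was found in 3 of the 10 windows against 30.3% of 35097 windows of all genes, and CCGGAA in 2 against 14.5%. The AP-1 letters are in 6.57% and the CRE letters in 1.65% of all windows, and neither was in the members' windows. The windows below are given in the direction of transcription, with CGGAA or its reverse complement in capitals. They are DUSP6 at chr12:89352502-89352751 (minus strand) with 3 matches, SPRY2 at chr13:80341127-80341376 (minus strand) with 2, and SPRY1 at chr4:123396545-123396794 (plus strand), in which these letters were not found. A second SPRY1 window, which lies within exons of the gene and is not shown, is 1 of the 2 windows with CCGGAA. The other member of this kind, SPRED1, had 1 window, at chr15:38252586-38252835 (plus strand), in which neither ETS motif was found, and it is not shown.
DUSP6: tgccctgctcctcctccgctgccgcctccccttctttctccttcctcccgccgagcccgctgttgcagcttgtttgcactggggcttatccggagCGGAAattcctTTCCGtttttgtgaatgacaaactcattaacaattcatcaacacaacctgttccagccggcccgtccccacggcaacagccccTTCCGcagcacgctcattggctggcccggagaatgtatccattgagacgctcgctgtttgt
SPRY2: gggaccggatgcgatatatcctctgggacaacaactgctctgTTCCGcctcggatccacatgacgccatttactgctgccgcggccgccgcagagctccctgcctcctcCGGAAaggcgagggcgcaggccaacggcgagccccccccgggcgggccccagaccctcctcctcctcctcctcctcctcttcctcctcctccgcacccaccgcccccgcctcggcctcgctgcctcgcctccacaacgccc
SPRY1: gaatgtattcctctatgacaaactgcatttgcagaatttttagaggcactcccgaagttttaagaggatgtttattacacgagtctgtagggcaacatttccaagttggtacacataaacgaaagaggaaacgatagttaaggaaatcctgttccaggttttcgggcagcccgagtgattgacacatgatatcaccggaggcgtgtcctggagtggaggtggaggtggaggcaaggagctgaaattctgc
A match is a description of letters and was not tested for binding.

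Line markers were read first. Untreated A549 libraries expressed the epithelial genes CDH1 (160 and 152 CPM) and KRT18 (2652 and 2389 CPM). CDKN2A had 0 counts in all 10 A549 libraries, which allows up to 0.230 CPM in the shallowest one. SUM159 libraries held next to no CDKN2A RNA either, with 3 and 1 counts untreated and 0 and 1 treated. This gene therefore did not separate the lines. The lung markers NKX2-1, SFTPB and SFTPC were absent or nearly so, at a sum of no more than 0.772 CPM in any A549 library. Of 5 epithelial genes SUM159 libraries held EPCAM, CDH1 and KRT19 under 1 CPM each, but KRT8 at 433 and 401 CPM and KRT18 at 321 and 297 CPM untreated. Of 5 breast genes ESR1 and PGR were at most at 0.662 CPM in SUM159, GATA3 stood at 6.27 and 5.89 CPM untreated, ERBB2 at 122 and 118 CPM, and KRT5 at 0.603 and 0.689 CPM untreated and 3.86 and 4.82 CPM treated. In untreated A549 libraries ERBB2 was higher than that, at 166 and 143 CPM. GATA3 was lower there, at 0.340 and 0.267 CPM, and ESR1, PGR and KRT5 were at 0. Mesenchymal VIM stood at 4318 and 4006 CPM in untreated SUM159. In bulk RNA, fewer cells of a kind and less RNA per cell cannot be told apart.

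The 10 genes lie on 10 different chromosomes of hg38. DUSP4 lies at chr8:29333064-29350684, DUSP5 at chr10:110497907-110511533, DUSP6 at chr12:89347235-89352501, SPRY1 at chr4:123396795-123403760 and SPRY2 at chr13:80335976-80341126. SPRY4 lies at chr5:142310427-142326455, SPRED1 at chr15:38252836-38357249, SPRED2 at chr2:65310851-65432637, ETV4 at chr17:43527844-43579620 and ETV5 at chr3:186046314-186110318. Values are for whole genes, all exons together. ETV4 shared 68 of its 3515 exon bases with DHX8 on the other strand, and ETV5 shared 164 of 5773 with DGKG on its own strand. The libraries were made with a stranded kit, and whether the counting used strand is not given in the sources used here. DHX8 stood at 74.9 and 75.6 CPM in untreated A549 cells and at 73.0 and 72.8 CPM with the combination.

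In untreated A549 cells DUSP4 was the most abundant member per kb of exon, at 68.8 CPM per kb, followed by ETV4 at 51.3 and ETV5 at 26.5, and SPRY1 was the least abundant at 3.27. DUSP4 kept the first rank and SPRY1 the last in all 5 A549 groups, while ETV4 moved from rank 2 untreated to rank 4 with the combination and rank 6 with PF-06873600. In untreated SUM159 cells DUSP5 ranked first at 20.7 CPM per kb, ETV4 second at 16.8, and SPRY1 again last at 0.613. The summed level of the 10 genes was 1158 and 1162 CPM in untreated A549 libraries and 517 and 514 CPM in untreated SUM159 libraries. DUSP4 alone was 31.6% of the members' sum per kb in untreated A549 and 3.44% in untreated SUM159.

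**Figure D1:**
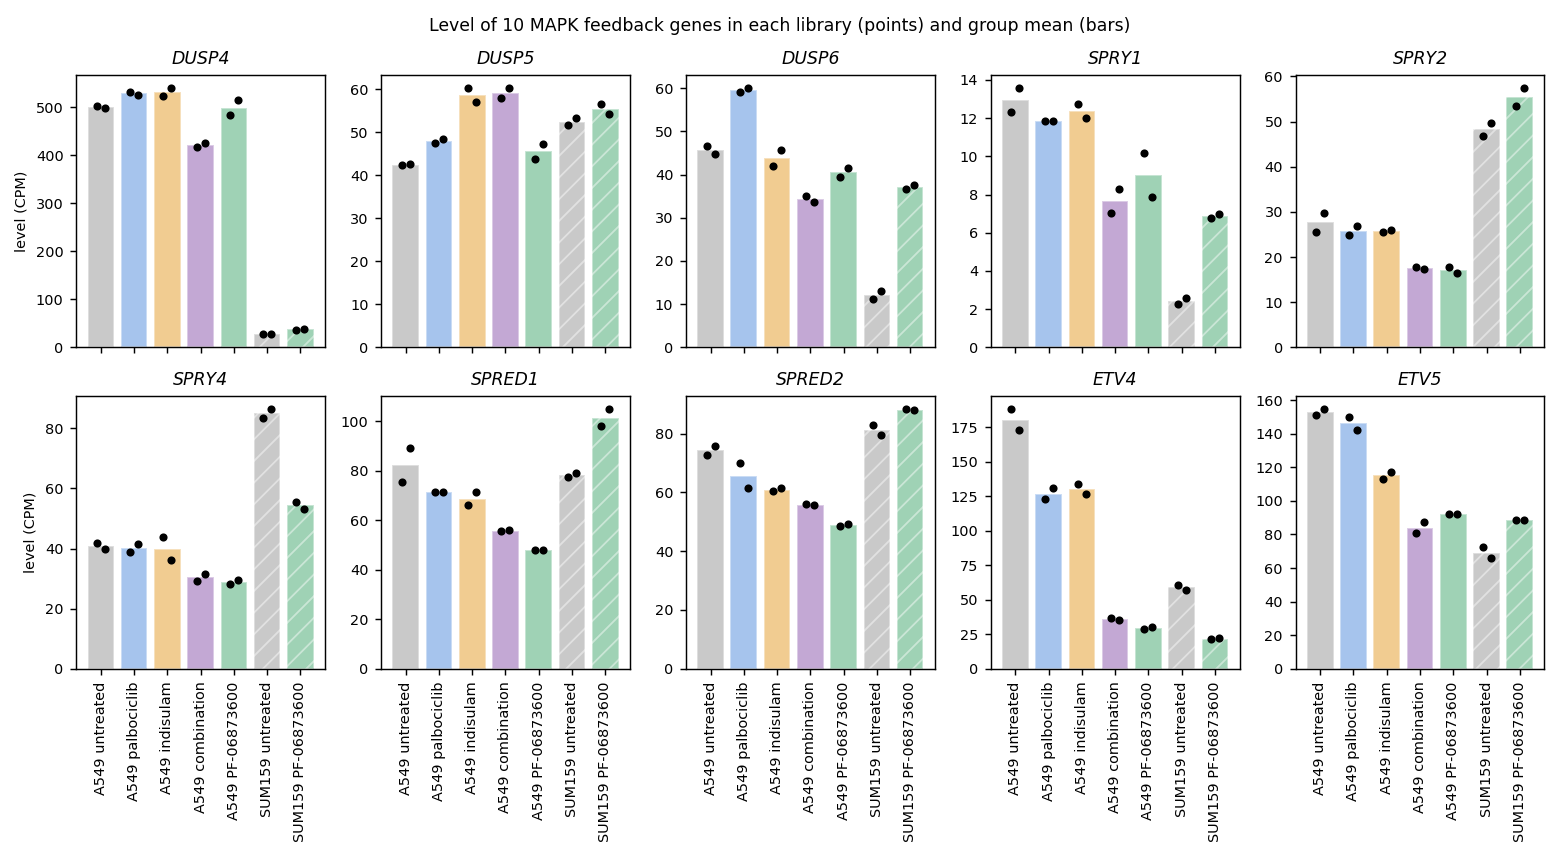
Level in CPM (vertical axes, each from 0) of the 10 genes, 1 panel each, in 7 groups; points are the 2 libraries of a group and bars their mean. ETV4 is lowest with the combination (36.5 and 35.4 CPM) and PF-06873600 (29.0 and 29.9 CPM) among A549 groups, and DUSP4 is far lower in SUM159 than in A549.

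The first comparison asked how the lines differed before treatment. DUSP4 stood at 502 and 499 CPM in untreated A549 libraries and at 28.1 and 26.8 CPM in untreated SUM159 libraries, a level 18.2-fold lower in SUM159 (log2 difference -4.19 ± 0.07 SE, adjusted p = 1.56e-15, edgeR's quasi-likelihood test with Benjamini-Hochberg adjustment). SPRY1 (12.3 and 13.6 against 2.29 and 2.57 CPM) was 5.32-fold lower. DUSP6 (46.6 and 44.9 against 11.2 and 13.03 CPM) was 3.78-fold lower. All 4 libraries of these genes were separated by line. ETV4 and ETV5 were 3.06- and 2.21-fold lower in SUM159, whereas SPRY4 and SPRY2 were 2.07- and 1.74-fold higher. Of the 10 members 3 were called higher in SUM159, where 42.8% of 16707 genes were, and 5 lower, where 36.4% were (79.3% in either direction). The third gene called higher was DUSP5 at 0.31 ± 0.07 on the log2 scale, a call that DESeq2 did not make (adjusted p = 0.108). SPRED1 and SPRED2 did not pass, at -0.07 ± 0.08 and 0.13 ± 0.07. Without untreated A549 replicate 1 SPRED1 passed at -0.19 (edgeR adjusted p = 0.0146), and without replicate 2 SPRED2 passed at 0.16 (0.0361) and SPRED1 stood at 0.05.

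Palbociclib alone moved few of the genes. DUSP6 rose from 46.6 and 44.9 CPM to 59.1 and 60.2 CPM, a 1.30-fold increase (log2 0.38 ± 0.07, edgeR adjusted p = 0.00211). ETV4 fell from 188 and 173 CPM to 123 and 131 CPM, which is 1.42-fold (log2 -0.51 ± 0.06, adjusted p = 7.43e-05). Neither gene's libraries overlapped between groups, and DUSP6 and ETV4 moved in opposite directions. These were the members called, 1 of 10 in each direction, against 8.3% of 15780 genes called higher and 7.4% lower, 15.7% in either direction. The other 8 lay between -0.21 and 0.18 on the log2 scale. Among them SPRED1 (-0.21 ± 0.08, adjusted p = 0.0871) passed without untreated replicate 1, at -0.32 (adjusted p = 0.00174), and lay at -0.08 without untreated replicate 2, where it did not pass. The median over the 10 was -0.08, beside -0.01 over all genes tested.

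Indisulam alone lowered both ETS factors and both SPRED genes and raised DUSP5. ETV4 stood at 133 and 126 CPM, a fall to a level near that with palbociclib (log2 -0.47 ± 0.06, adjusted p = 2.69e-05). ETV5 fell from 151 and 155 CPM to 113 and 117 CPM (log2 -0.41 ± 0.06, adjusted p = 7.42e-05). DUSP5, the nuclear ERK phosphatase, rose from 42.3 and 42.5 CPM to 60.2 and 57.0 CPM, or 1.38-fold (log2 0.47 ± 0.07, adjusted p = 8.99e-05). For each of these 3 genes the treated libraries lay apart from the untreated ones. SPRED2 (log2 -0.29 ± 0.07) and SPRED1 (-0.26 ± 0.08, adjusted p = 0.0135) also passed. The SPRED1 call was lost without untreated replicate 2 (-0.13, adjusted p = 0.130), without indisulam replicate 1 (-0.21, 0.120) and in a model of only these groups (0.0769). In all 1 member was called higher and 4 lower, where 28.0% and 17.5% of genes were (45.5% in either direction). For all genes together the split between higher and lower calls depended on the scaling, with 61.6% of calls higher under total counts and 50.4% under TMM, but the 5 members' calls held under both. DUSP4, DUSP6 and the 3 Sprouty genes did not pass, between -0.10 and 0.09 on the log2 scale.

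With both drugs, 9 of the 10 members fell in A549 cells, where 30.0% of genes tested did, and DUSP5 rose, where 35.1% did (65.2% in either direction). The median log2 change of the members was -0.49, beside 0.05 over all genes tested. ETV4 fell furthest, from 188 and 173 CPM to 36.5 and 35.4 CPM, which is 5.02-fold (log2 -2.33 ± 0.07, edgeR adjusted p = 1.21e-12). ETV5 fell to 80.6 and 87.6 CPM, or 1.82-fold (log2 -0.86 ± 0.06, adjusted p = 1.37e-08). Of the Sprouty genes SPRY1 fell from 12.3 and 13.6 CPM to 7.02 and 8.30 CPM (log2 -0.75 ± 0.14, adjusted p = 0.000299). SPRY2 fell by 0.66 and SPRY4 by 0.43 on the log2 scale. SPRED1 fell by 0.56 and SPRED2 by 0.41. Among the phosphatases DUSP6 fell to 35.0 and 33.6 CPM (log2 -0.42 ± 0.07, adjusted p = 0.000194), and DUSP4 from 502 and 499 CPM to 417 and 425 CPM (log2 -0.25 ± 0.05, adjusted p = 0.000798). DUSP5 rose to 57.9 and 60.4 CPM (log2 0.48 ± 0.07, adjusted p = 2.92e-05), a level that overlapped the indisulam libraries. For all 10 genes both combination libraries lay outside the untreated range, and these 10 calls held with each library left out.

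Against palbociclib alone the combination was again lower for 9 members (26.9% of genes were lower) and higher for DUSP5 (33.5% were higher, and 60.4% differed in either direction). DUSP6, which palbociclib had raised to 59.1 and 60.2 CPM, was 1.74-fold lower (log2 -0.80 ± 0.07, adjusted p = 2.98e-07), and ETV4 was 3.53-fold lower. The smallest of these calls, SPRED2 at -0.23 ± 0.07 (adjusted p = 0.0124), was lost without palbociclib replicate 1 (-0.14, 0.183), combination replicate 1 (-0.24, 0.0521) or combination replicate 2 (-0.22, 0.0697). Against indisulam alone 8 members were lower, where 23.9% of genes were (22.0% were higher and 46.0% differed in either direction). ETV4 was 3.61-fold and SPRY1 1.61-fold lower, while DUSP5 (0.01 ± 0.07) and SPRED2 (-0.12 ± 0.07) did not pass. The calls of SPRY4 (-0.39 ± 0.09) and SPRED1 (-0.30 ± 0.08) were lost without indisulam replicate 1 (-0.25, adjusted p = 0.0698) and without indisulam replicate 2 (-0.25, 0.0700), in that order. These comparisons share the combination libraries.

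**Figure D2:**
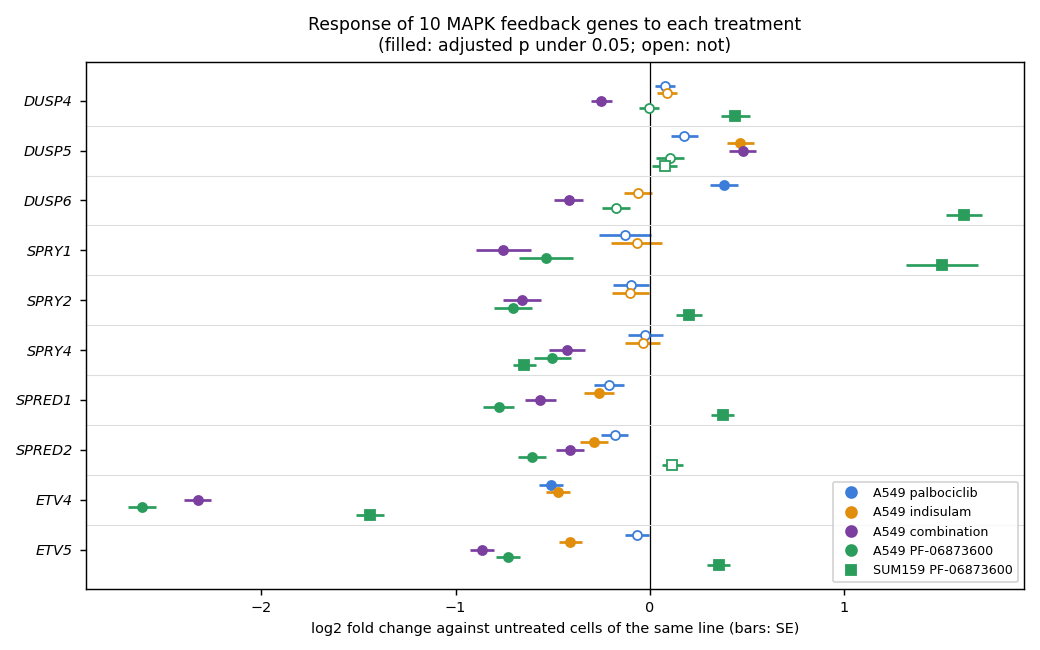
Log2 fold change against untreated cells of the same line (horizontal axis, bars are SE) of the 10 genes under 5 treatments; filled symbols passed an adjusted p of 0.05. ETV4 is left of 0 under all 5, from -0.47 with indisulam to -2.61 with PF-06873600 in A549, and DUSP6 (1.62) and SPRY1 stand furthest to the right in SUM159.

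Whether the combination went beyond the single drugs was tested with an interaction term, the combination's log2 change minus the sum of the changes with each drug. For ETV4 the single drugs summed to -0.98 and the combination gave -2.33, a difference of -1.34 ± 0.09 (edgeR adjusted p = 1.24e-07). For DUSP6 the sum was 0.32 and the combination -0.42 (difference -0.74 ± 0.10, adjusted p = 0.000106). For DUSP4 the sum was 0.17 and the combination -0.25 (difference -0.42 ± 0.07, adjusted p = 0.000836). The combination was thus below the sum for all 3, and for DUSP6 and DUSP4 the sum and the combination had opposite signs. ETV5 (-0.39 ± 0.09, adjusted p = 0.00391), SPRY2 (-0.46 ± 0.14, 0.0223) and SPRY1 (-0.56 ± 0.20, 0.0499) also passed, so 6 of 10 members were called below the sum, where 14.5% of genes were (10.7% above it and 25.2% in either direction). The SPRY calls were the least stable. DESeq2 gave an adjusted p of 0.123 for SPRY2 and 0.201 for SPRY1, and no filter on low counts gave 0.0501 for SPRY1. SPRY1 failed without any 1 of the 8 libraries except untreated replicate 2, at -0.45 to -0.69 (adjusted p from 0.0558 to 0.197). SPRY2 failed without palbociclib replicate 2 or any of the indisulam and combination libraries, at -0.40 to -0.48 (0.0521 to 0.0972). SPRY4 just missed (-0.37 ± 0.13, 0.0542) and passed under TMM (0.0432), no filter (0.0479) or a mean of 50 counts (0.0491), and without untreated replicate 1 (-0.40, 0.0311) or indisulam replicate 2 (-0.50, 0.0142). Without indisulam replicate 1 it shrank to -0.23 and did not pass. SPRED1, SPRED2 and DUSP5 lay at -0.09 ± 0.11, 0.06 ± 0.10 and -0.17 ± 0.10.

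**Figure D3:**
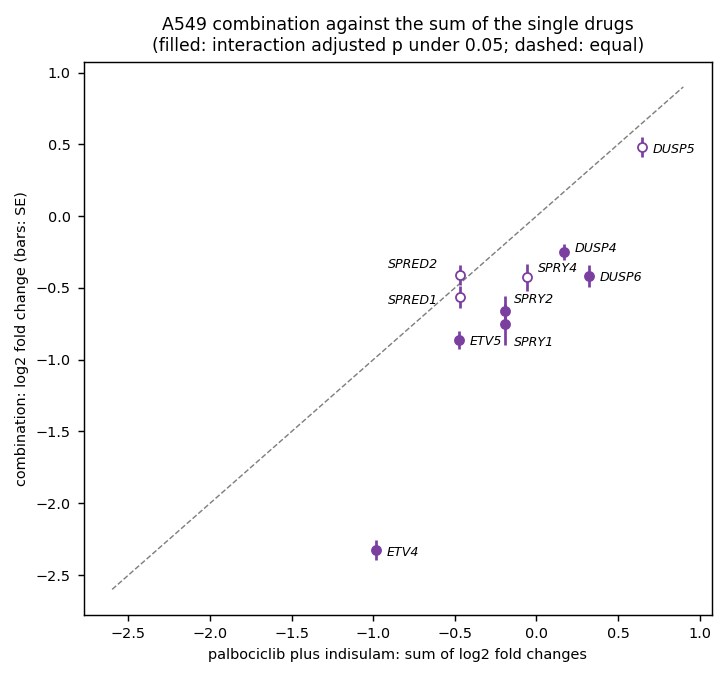
Log2 fold change with the combination (vertical axis, bars are SE) against the sum of the log2 fold changes with palbociclib and indisulam (horizontal axis) for the 10 genes in A549; the dashed line marks equal values and filled points passed the interaction test. ETV4 lies furthest below the line (-2.33 against -0.98), and SPRED2 lies slightly above it.

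PF-06873600 lowered 7 of the 10 members in A549 cells, where 27.8% of genes fell (28.5% rose and 56.3% changed in either direction), with a median of -0.57 over the 10 beside -0.01 over all genes. ETV4 went from 188 and 173 CPM to 29.0 and 29.9 CPM, or 6.12-fold lower (log2 -2.61 ± 0.07, edgeR adjusted p = 1.56e-12). SPRED1 fell from 75.4 and 89.3 CPM to 48.0 and 48.0 CPM (log2 -0.78 ± 0.08, adjusted p = 1.21e-06). ETV5 fell to 92.3 and 92.1 CPM (log2 -0.73 ± 0.06, adjusted p = 1.36e-07). The libraries of these 3 genes did not overlap between groups. SPRY2 fell by 0.70, SPRED2 by 0.60, SPRY1 by 0.53 and SPRY4 by 0.50 on the log2 scale. The SPRY1 call was lost without PF-06873600 replicate 2 (-0.35, adjusted p = 0.0966). The phosphatases were the members not called. DUSP4 stood at 483 and 514 CPM around the untreated 502 and 499 CPM (log2 -0.01 ± 0.05), and DUSP5 lay at 0.10 ± 0.07. DUSP6, at 39.5 and 41.5 CPM, was below both untreated libraries but missed the threshold (log2 -0.17 ± 0.07, adjusted p = 0.0567). It passed without untreated replicate 2 (-0.20, 0.0473) and with a filter at a mean of 50 counts (0.0481). Doses and times differed from those of the combination, and both comparisons used the same untreated libraries, so their values are given only side by side: -0.25 and -0.01 for DUSP4, -0.42 and -0.17 for DUSP6, and -0.56 and -0.78 for SPRED1, the combination first.

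In SUM159 cells PF-06873600 raised 6 members, where 38.1% of 15055 genes rose, and lowered 2, where 35.6% fell (73.7% in either direction). DUSP6 rose from 11.2 and 13.03 CPM to 36.8 and 37.5 CPM, or 3.07-fold (log2 1.62 ± 0.09, edgeR adjusted p = 6.86e-10). SPRY1 rose from 2.29 and 2.57 CPM to 6.78 and 7.00 CPM, or 2.84-fold (adjusted p = 3.22e-06), on counts of 38 to 148 per library. DUSP6 and SPRY1 ranked 9 and 10 per kb among the members in untreated SUM159, and treated SUM159 libraries still held less of both than untreated A549 libraries. DUSP4 rose from 28.1 and 26.8 CPM to 37.1 and 37.4 CPM (log2 0.44 ± 0.07, adjusted p = 7.73e-05). SPRED1 rose from 77.4 and 79.2 CPM to 98.0 and 105 CPM (log2 0.38 ± 0.06, adjusted p = 3.07e-05), and ETV5 from 72.4 and 65.9 CPM to 88.4 and 88.5 CPM (log2 0.36 ± 0.06). The groups did not overlap for these 5 genes. SPRY2, at 0.20 ± 0.07 (adjusted p = 0.0131), was the weakest, and its call was lost without PF-06873600 replicate 2 (0.15, 0.180) and in DESeq2 (0.0891).

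The genes that fell in SUM159 were ETV4 and SPRY4. ETV4 went from 60.6 and 57.3 CPM to 21.2 and 22.3 CPM, or 2.71-fold lower (log2 -1.44 ± 0.07, edgeR adjusted p = 1.70e-10). SPRY4 went from 83.5 and 86.5 CPM to 55.5 and 53.2 CPM, or 1.56-fold lower (log2 -0.65 ± 0.06, adjusted p = 1.29e-07). Neither overlapped between groups. Within the ETS pair ETV4 and ETV5 therefore moved in opposite directions, and so did SPRY4 against SPRY1 and SPRY2. DUSP5 (0.08 ± 0.06) and SPRED2 (0.12 ± 0.06, adjusted p = 0.0688) did not pass, though SPRED2 did without untreated replicate 1 (0.15, 0.0264). DHX8, which overlaps ETV4 over 1.93% of its exon bases, stood at 121 and 128 CPM untreated and at 99.6 and 97.0 CPM treated.

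Whether the lines responded differently to PF-06873600 was tested directly, as the SUM159 change minus the A549 change. The change in SUM159 was above that in A549 for 8 of 10 members, where 25.6% of genes passed in that direction (27.2% in the other and 52.7% in either). The largest differences were 2.04 ± 0.24 for SPRY1 (log2, edgeR adjusted p = 5.71e-06) and 1.79 ± 0.12 for DUSP6 (adjusted p = 3.03e-08). For ETV4, which fell in both lines, the fall was smaller in SUM159 by 1.17 ± 0.11 (adjusted p = 5.52e-07). For SPRED1 (1.15 ± 0.11) and ETV5 (1.09 ± 0.09) the gene fell in A549 and rose in SUM159. The same was true of SPRY2 (0.91 ± 0.13) within the limits on its SUM159 call given above. SPRY4 (-0.14 ± 0.10, adjusted p = 0.266) and DUSP5 (-0.03 ± 0.10, 0.867) did not pass. Of these SPRY4 was lower after treatment in both lines.

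**Figure D4:**
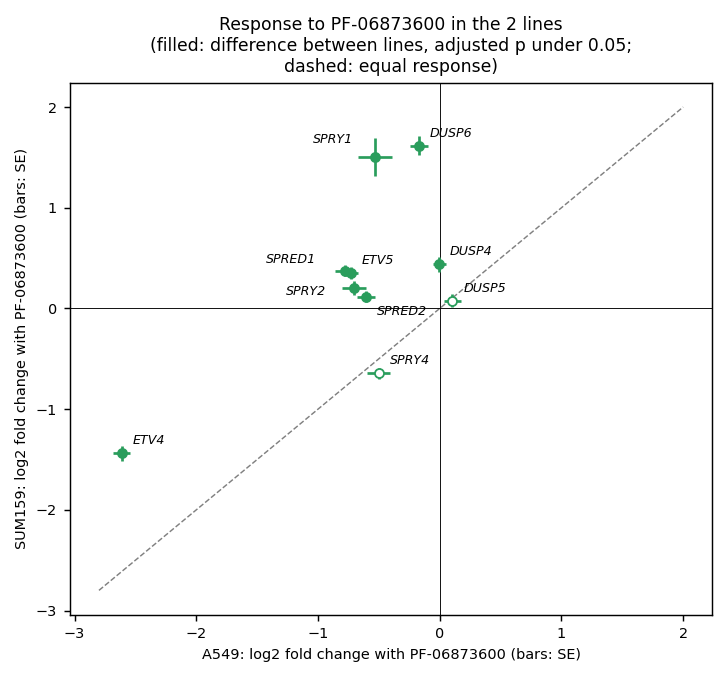
Log2 fold change with PF-06873600 in SUM159 (vertical axis) against A549 (horizontal axis) for the 10 genes; bars are SE, the dashed line marks equal responses, and filled points passed the test of the difference between lines. ETV4 and SPRY4 are below 0 in both lines, while DUSP6, at 1.62, and SPRY1 stand highest in SUM159.

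Across the 10 A549 libraries ETV4 and SPRY2 ran most closely together (Pearson r of log2(CPM + 1) = 0.974), with SPRED1 and SPRED2 next (0.954), while DUSP5 was negative with each other member, from -0.115 with SPRY4 to -0.535 with ETV5. Over all 14 libraries several signs changed, as for DUSP4 and SPRY2 (0.629 within A549, -0.876 over both lines). These values describe groups of libraries that share treatments and lines. Among 14340 genes those among the most like DUSP6 over the 14 libraries were DNAJB9 (0.987), LY6E (0.976), SEL1L3 (0.968) and PDGFRL (0.966). Those most like SPRY4 were BLMH (0.982), PRPF38A (0.979), CEP85 (0.979), MORF4L2 (0.978) and ARHGAP19 (0.977).

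Other genes of the pathway were read from lists, whose counts stand beside the shares of all genes tested. Several of these counts, here and below, included calls lost with a library left out, also where no loss is stated. Of 7 further MAPK phosphatases 6 were tested in A549 with the combination, and 5 were called higher, where 35.1% of all genes were. DUSP8, which acts on JNK and p38 rather than on ERK, rose from 2.04 and 1.93 CPM to 14.7 and 15.8 CPM, or 7.68-fold. DUSP10, of the same preference, rose by 1.46 ± 0.10 on the log2 scale, and DUSP1, an immediate early phosphatase, by 0.86 ± 0.08. With PF-06873600 4 were higher and 1 lower in A549 (28.5% and 27.8% of all genes), and DUSP8 rose 5.50-fold. In SUM159 3 of 6 were higher and 2 lower, near the 38.1% and 35.6% of all genes, with DUSP8 up 2.92-fold and DUSP10 up by 0.76 ± 0.08. Without PF-06873600 replicate 1 only 1 of those 2 lower calls was kept. The list's median was 0.77 with the combination, where that of the 10 feedback genes was -0.49. Of the family members left out of the 10, ETV1, the third PEA3 factor, fell with the combination (log2 -0.81 ± 0.10, edgeR adjusted p = 6.14e-06), whereas SPRED3 (1.84 ± 0.20) and SPRY3 (0.94 ± 0.21) rose.

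Other genes known as ERK outputs did not share one direction. With the combination 6 of 10 were higher and 2 lower, beside 35.1% and 30.0% of all genes. FOSL1, an AP-1 subunit, rose from 7.61 and 8.73 CPM to 41.7 and 42.2 CPM (5.13-fold), and CCND1, cyclin D1, rose by 1.84 ± 0.05 on the log2 scale. FOS fell by 1.35, from 54 and 56 to 18 and 25 counts, and PHLDA1 by 0.25. With PF-06873600 in A549 FOSL1 rose 7.36-fold and CCND1 by 1.55 ± 0.05, while FOS fell by 1.02, with 6 of 10 higher and 3 lower (28.5% and 27.8% of all genes). In SUM159 6 were higher and 4 lower (38.1% and 35.6%). There FOSL1 fell from 216 and 195 CPM to 149 and 144 CPM (log2 -0.49 ± 0.06), and EGR1 by 1.14, while LIF (2.15 ± 0.19) and FOS (1.33 ± 0.24) rose. Both rises began from low counts in untreated SUM159, 28 and 29 for LIF and 28 and 25 for FOS. In SUM159 FOSL1 thus fell where DUSP6 rose. The difference between lines was -3.37 ± 0.12 for FOSL1 (adjusted p = 6.67e-11).

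Of 19 genes of the RAS-ERK core 11 were higher and 5 lower with the combination, beside 35.1% and 30.0% of all genes. Without combination replicate 2 only 3 of those 5 lower calls were kept. NRAS fell from 81.1 and 102 CPM to 60.3 and 60.0 CPM (log2 -0.60 ± 0.09), and HRAS rose (0.54 ± 0.10). CIC, the repressor of the PEA3 genes, rose from 140 and 102 CPM to 238 and 249 CPM (log2 1.01 ± 0.11, edgeR adjusted p = 1.29e-06), and RASA1, a RAS inactivator, by 1.01 ± 0.09. With PF-06873600 in A549 7 were higher and 6 lower, near the 28.5% and 27.8% of all genes, and some of these calls were lost with a library left out. CIC rose there by 0.74 ± 0.11. In SUM159 6 were higher and 9 lower (38.1% and 35.6% of all genes). HRAS fell from 60.3 and 61.8 CPM to 26.9 and 29.2 CPM (log2 -1.12 ± 0.07, adjusted p = 1.73e-09) and NRAS by 1.21, while CIC lay at 0.04 ± 0.06. SHC1, an adaptor between receptors and RAS, rose from 397 and 382 CPM to 903 and 884 CPM (log2 1.20 ± 0.06), the scaffold gene KSR1 by 0.78 ± 0.09 and the exchange factor gene SOS2 by 0.63 ± 0.08. Over 17 receptors and ligands 7 were higher and 7 lower with the combination, near the 35.1% and 30.0% of all genes. Without combination replicate 2 only 4 of those 7 lower calls were kept. ERBB3 fell from 267 and 265 CPM to 45.7 and 47.1 CPM (5.73-fold) and FGFR4 by 1.66, while EGFR rose by 1.42 ± 0.09 and HBEGF, a ligand of EGFR, by 2.48 ± 0.15. In SUM159 8 of 14 tested were higher and 5 lower (38.1% and 35.6% of all genes), with EGF up by 2.00 ± 0.22 and FGF2 down (-0.79 ± 0.05). The EGF rise began from 20 and 28 counts.

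**Figure D5:**
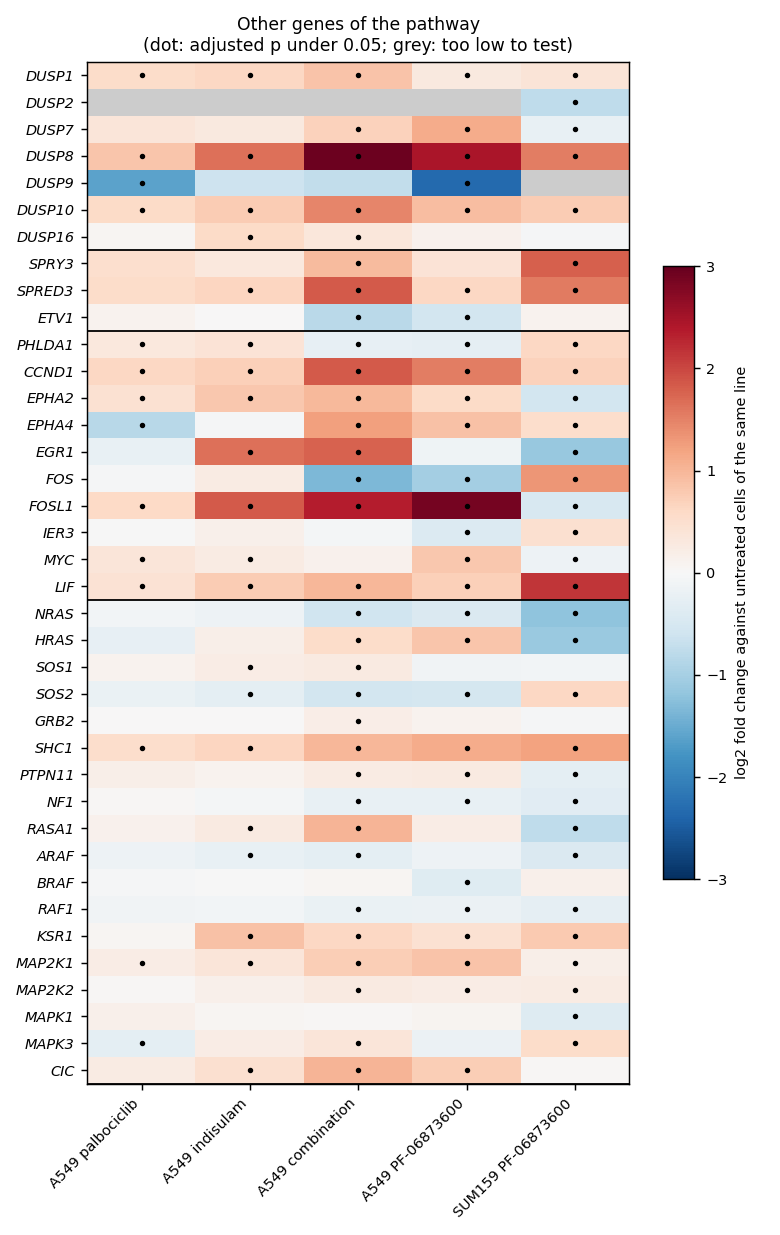
Log2 fold change (colour scale) of other pathway genes, grouped from top to bottom as other MAPK phosphatases, remaining family members, other ERK output genes and the RAS-ERK core, under 5 treatments (columns); dots passed an adjusted p of 0.05 and grey cells were too low to test. DUSP8 is above 0 in every column, and FOSL1 rises in A549 and falls in SUM159.

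Genes of proliferation and of the drugs' action moved in the same libraries, and their part in these results was not tested. MKI67, a proliferation gene, fell with palbociclib (log2 -0.62 ± 0.08) and indisulam (-0.31 ± 0.08) alone. It fell from 172 and 182 CPM to 30.0 and 29.3 CPM with the combination and to 84.5 and 95.8 CPM with PF-06873600 in A549, and from 473 and 649 CPM to 137 and 138 CPM in SUM159. MCM2, a replication licensing gene, fell with the combination (log2 -1.03 ± 0.08) and in SUM159 (-1.13 ± 0.06), but rose with PF-06873600 in A549, from 50.7 and 48.5 CPM to 82.5 and 92.1 CPM (0.82 ± 0.07), and with palbociclib (0.64 ± 0.07). CCNA2, cyclin A2, fell with the combination (-1.39 ± 0.11) and in SUM159 (-1.90 ± 0.06). With PF-06873600 in A549 it lay at -0.33 ± 0.10, a call lost without untreated replicate 2 (-0.21, edgeR adjusted p = 0.111), PF-06873600 replicate 1 (-0.35, 0.0524) or PF-06873600 replicate 2 (-0.32, 0.0783) and in DESeq2 (0.0598). CDKN1A, which encodes the CDK inhibitor p21, rose 1.33-fold with palbociclib, 9.18-fold with indisulam (39.2 and 43.7 against 377 and 383 CPM), 16.3-fold with the combination, 12.4-fold with PF-06873600 in A549 and 2.01-fold in SUM159. RBM39 RNA rose with indisulam (log2 0.83 ± 0.08) and with the combination (0.68 ± 0.08), and fell with PF-06873600 in A549 (-0.54 ± 0.08) and SUM159 (-0.90 ± 0.05). CCNH, cyclin H, fell by 1.23 with indisulam and by 1.30 with the combination. Genes used as markers of other cell types also moved in these cell line cultures. The fibroblast pair COL1A1 and PDGFRB summed to 1.90 and 2.13 CPM in untreated A549 libraries and to 74.2 and 74.0 CPM with the combination, nearly all of it COL1A1 (73.7 and 73.5 CPM), with PDGFRB at 0.496 and 0.515 CPM. That pair summed to 20.9 and 20.1 CPM with indisulam and to 3.86 and 4.39 CPM with palbociclib, and the 5 epithelial genes to 8251 and 8236 CPM with indisulam and to 7849 and 7949 CPM with palbociclib. VIM stood at 701 and 628 CPM untreated and at 1792 and 1743 CPM with the combination, and the 5 epithelial genes summed to 5429 and 4672 CPM untreated and to 10532 and 10066 CPM with the combination. Within that sum KRT8, KRT18 and KRT19 were higher with the combination, whereas CDH1 (160 and 152 against 130 and 126 CPM) and EPCAM (18.3 and 20.6 against 15.1 and 13.9 CPM) were lower in both combination libraries. With PF-06873600 in A549 COL1A1 stood at 9.72 and 8.10 CPM, VIM at 1093 and 1127 CPM and the epithelial sum at 11769 and 11845 CPM, with CDH1 at 93.1 and 98.1 CPM and EPCAM at 8.35 and 7.73 CPM. In SUM159 the 5 epithelial genes summed to 755 and 699 CPM untreated and to 428 and 447 CPM treated, nearly all of it KRT8 and KRT18. COL1A1 in SUM159 stood at 1599 and 1700 CPM untreated and 3133 and 3257 CPM treated, and PDGFRB at 18.0 and 18.6 CPM untreated and 48.7 and 49.6 CPM treated. The mesenchymal gene FN1 stood at 2764 and 3527 CPM untreated and 13680 and 13795 CPM treated, whereas VIM, of the same list, stood at 4318 and 4006 CPM untreated and 3609 and 3610 CPM treated. The leukocyte gene PTPRC in SUM159 stood at 9.35 and 9.90 CPM untreated and 20.3 and 17.9 CPM treated with CD3E at 0, and the endothelial gene PECAM1 at 10.9 and 11.5 CPM untreated and 25.5 and 27.6 CPM treated with VWF at 0.468 CPM or less.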

How the data were processed

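RNA from A549 and SUM159 cells was sequenced from stranded mRNA libraries. The submitters' processing notes name HISAT2 2.2.1 and HTSeq and the build GRCh38; the annotation release and the strand setting of counting are not given in the sources used here. The authors deposited raw counts per gene, not normalized, in 1 table per library, with 9 summary lines that were left out of totals and tests. Reads outside genes were 3.74% to 5.99% and ambiguous reads 3.02% to 3.47% of each library, both out of counted, outside, ambiguous, poorly aligned and unaligned reads.

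Samples were grouped by their labels. Libraries were scaled by total count, filtered with filterByExpr and tested with the quasi-likelihood test of edgeR 4.0.16 (R 4.3.3) with Benjamini-Hochberg adjustment over all genes tested and called at 0.05. The model of A549 libraries (10) tested 15780 genes, that of SUM159 libraries (4) tested 15055, and the model of both lines 16707 genes. Each SE is the log2 fold change, without its sign, divided by the root of the F statistic. Biological coefficients of variation came to 0.0555, 0.0472 and 0.0588, in that order. An exact permutation test of 2 against 2 libraries cannot go below a two-sided p of 0.33. Libraries of the same group differed by more than sampling noise (chi-square per degree of freedom 1.61 to 9.57). The value was highest in the untreated groups, at 9.57 for A549 and 9.05 for SUM159, and at most 5.04 in a treated group. Each model takes the spread of a gene from all its groups together, also for comparisons with untreated cells.

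The members and lists were chosen with earlier results of these data known. All members are named; of each pathway list, genes were named from the 3 called higher and 3 called lower with the largest change, no overlap and at least 1 CPM in the higher group, besides NRAS, HRAS, DUSP1, EGR1 and PHLDA1. The values of CIC with PF-06873600 were added after they had been seen. Some genes that the rules named are not reported here. Likeness was the Pearson correlation of log2(CPM + 1). Exon lengths came from GENCODE release 44. Alternatives were TMM, DESeq2 1.42.0, no filter, a mean of 50 counts, only the compared groups, the replicate number as a block and each library left out. Scripts were tested on simulated data and ran in Python 3.11.15 with pandas 2.3.3, numpy 2.4.6 and matplotlib 3.10.9.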

Additional observations from a re-analysis of the deposited data

Results flagged for a closer look

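The change with PF-06873600 differed between SUM159 and A549 for 8 of the 10 feedback genes, by edgeR's test of the difference itself (SUM159 change minus A549 change, log2 scale). The differences were 2.04 for SPRY1, 1.79 for DUSP6, 1.17 for ETV4, 1.15 for SPRED1, 1.09 for ETV5, 0.91 for SPRY2, 0.72 for SPRED2 and 0.45 for DUSP4. Of all 16707 genes tested 52.7% differed between the lines, and the 8 calls held with each library left out.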

How the results depend on the processing

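Of 100 results (10 feedback genes in 10 comparisons) 74 kept their direction and side of the threshold under every alternative run for them. The model of only the compared groups and the crosswise pairing described below were not run for all 100. Of 1070 alternative values 1012 did so, 28 were no longer past the threshold, 12 newly passed it and 18 turned sign. The calls that changed stand in the report with their values, except those under the replicate block, given below, and the cause was not tested. The count of members lower with palbociclib, 1 in the report, ran from 1 to 2 with each library left out. Each result that turned sign was one that had not passed. DUSP4 with PF-06873600 in A549 lay at 0.00297 under TMM, at 0.0145 under DESeq2 and between -0.0508 and 0.0388 with each library left out. The DUSP5 difference between lines was 0.0213 under DESeq2 and ran from -0.0792 to 0.0299 with each library left out. With each library left out, SPRY2 ran from -0.20 to 0.0177 and SPRY4 from -0.0751 to 0.0248 with palbociclib. With indisulam DUSP6 ran from -0.12 to 0.00159, SPRY1 from -0.14 to 0.00746, SPRY2 from -0.20 to 0.0121 and SPRY4 from -0.18 to 0.0948. The combination against indisulam gave DUSP5 from -0.0257 to 0.0523. The interaction of SPRED1 ran from -0.22 to 0.0212 and that of SPRED2 from -0.0360 to 0.15, and the untreated line difference of SPRED1 from -0.19 to 0.0540. TMM moved the median of all genes by less than 0.1 on the log2 scale in all 10 comparisons. With indisulam 4420 genes were higher and 2757 lower under total counts, against 3613 and 3558 under TMM. The larger direction turned for the combination against untreated cells, from 5544 higher and 4739 lower to 4908 and 5397 under TMM. It also turned for the combination against palbociclib, from 5279 higher and 4250 lower to 4542 and 5067. The members' calls in both of these comparisons held under TMM.

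Whether equal replicate numbers mark paired libraries is not given, and the deviations of same-numbered libraries correlated at -0.331 for palbociclib and untreated A549, at 0.309 for indisulam and untreated A549, at -0.278 for the untreated lines and between -0.0184 and 0.0801 elsewhere. With the replicate number as a block 99 of 100 results kept their call. The exception was the SPRY1 interaction (-0.56, edgeR adjusted p = 0.0634), which left 5 members below the sum. Pairing the numbers crosswise, chosen after seeing the data, gave 1 member higher and 2 lower with palbociclib (SPRED1 newly passed), and 3 higher and 5 lower between the untreated lines. Leaving out a library leaves 1 in its group, which is then assumed to vary like the other groups. The lowest member counts, 38 and 41 for SPRY1 in untreated SUM159, carry the largest counting error.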
